A study of Homo sapiens with 6 samples.

Results

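Heat shock proteins and DNAJ co-chaperones were examined in HCT116 cells, a line from a human colorectal tumour, with 2 libraries in each of 3 groups. The negative control (NC) group was the reference for both comparisons. The GAS5 group is labelled as cells that received a plasmid for the lncRNA GAS5, and the siYAP group as cells that received YAP-specific siRNA. What the NC cells were transfected with is not given in the sources used here. Overexpression of GAS5 and transfection with a plasmid therefore cannot be told apart, nor can YAP knockdown and transfection with siRNA. The genes were chosen by symbol, as every HSPA, HSPB, HSPD, HSPE, HSPH and HSP90 gene, every numbered DNAJA, DNAJB and DNAJC gene, and HSF1, HSF2, BAG3 and CRYAB. HSPBAP1 and HSPBP1 were left out. This gave 74 genes of the 19871 symbols in the deposited mRNA tables, with 296 of the 92866 listed transcripts.

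Chaperones bind unfolded or partly folded proteins and keep them from aggregating. HSP70 proteins (the HSPA genes) bind and release clients in a cycle driven by ATP. DNAJ proteins start the cycle by making HSP70 hydrolyse ATP through their J domain, and nucleotide exchange factors such as HSPH1 and BAG3 end it. HSP90 takes over many clients at a later stage of folding, small heat shock proteins (the HSPB genes) hold unfolded proteins without ATP, and the HSPD1-HSPE1 chamber folds proteins in mitochondria. Under proteotoxic stress the transcription factor HSF1 binds heat shock elements, which are repeats of nGAAn blocks in alternating direction, and induces part of these genes. Cancer cells often keep high levels of the constitutive members.

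For each group the tables give 1 value per transcript, which the authors averaged from 2 libraries, so there is no measured spread between libraries and no test between groups. Counts are estimated fragment numbers summed over the transcripts of a symbol and scaled to the NC group by edgeR's TMM method. A log2 fold change was taken after adding 2 counts, and a gene was counted as higher or lower at 0.5 or more on the log2 scale, which is 1.41-fold. The 95% Wilson intervals of fold changes cover counting error only. The mean counts summed to between 25521577 and 27206123 per group. YAP1 had a log2 fold change of -1.18 in siYAP, and GAS5 has no row in these mRNA tables. Of the epithelial markers looked at, EPCAM, KRT8 and KRT18 were between 134 and 1697 FPKM in every group, and CDH1 was between 33.0 and 48.6 FPKM. Of the intestinal markers, CDX2 was between 3.52 and 4.34 FPKM and KRT20 between 0.265 and 0.365 FPKM, while CDX1 was listed at 0 in all 3 groups and VIL1 had at most 6 mean counts.

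The heat shock elements in the promoters of these genes are shown because several of the genes with matches are among those described below. RefSeq promoters (GRCh38.p14) from 250 bases before to 50 bases after the start were searched for 3 blocks in a row, GAA, TTC and GAA, with NN (any 2 bases) between neighbouring blocks, and for the reverse complement, TTC, GAA and TTC with the same spacing. A match was present in 7 of the 65 members with a promoter in the table and in 166 of all 27305 genes (0.608%). Of all 35116 windows of this length, 0.49% held a match. The genes with a match were DNAJA1, DNAJB6, HSP90AA1, HSP90AB1, HSPA6, HSPA8 and HSPD1, all but DNAJB6 from a list of 15 classical HSF1-induced genes. In HSPD1 the motif and its reverse complement overlap in a run of 18 bases. The matches of 6 of these genes are given here on the strand of the gene, 5′ to 3′, with the matched letters in capitals:
HSPA8, chr11:123062171-123062199, minus strand: cgggccccTTCTGGAAGGTTCtaagatag
HSPA8, chr11:123062346-123062374, minus strand: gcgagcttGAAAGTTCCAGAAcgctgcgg
HSP90AA1, chr14:102087112-102087140, minus strand: gagggttcTTCCGGAAGGTTCgggaggct
HSP90AB1, chr6:44247823-44247851, plus strand: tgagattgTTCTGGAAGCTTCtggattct
DNAJA1, chr9:33025268-33025296, plus strand: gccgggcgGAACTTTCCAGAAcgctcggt
HSPD1, chr2:197500062-197500090, minus strand: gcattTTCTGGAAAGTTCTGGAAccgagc
HSPA6, chr1:161524458-161524486, plus strand: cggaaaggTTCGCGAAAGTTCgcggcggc
The HSPA8 matches begin at bases -55 and -230 from the start of transcription, those of HSP90AA1 and HSPA6 at -88 and -74, and the DNAJA1 match at base 4 after it. HSP90AB1 holds a further match at -165, and DNAJB6 holds 1 at -131, both not printed here. Of the 10 members higher in GAS5 at the limit, 2 held a match (DNAJA1 and HSPA8). Of the 3 members lower in siYAP, 1 did (HSPA8), and of the 2 higher in siYAP, 0 did. No match was found in the windows of HSPA1B, HSPB1, HSPB8, BAG3, HSPE1, DNAJB2, DNAJB4 or DNAJC27, which says only that these letters are not in them. The HSPD1 stretch printed above lies within the GENCODE bounds of HSPE1, from 197499994 to 197503457 on the plus strand. HSPE1 therefore has a match nearby, although its own window holds none. A match is a description of the letters and not a measured binding site.

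In NC the levels ran over several orders of magnitude, compared here as FPKM summed per gene. HSP90AB1, the constitutive cytosolic HSP90, had the highest level with 1948 FPKM, followed by its stress-inducible paralog HSP90AA1 with 731 FPKM and by HSPA8, the constitutive cytosolic HSP70, with 590 FPKM. HSPD1, the mitochondrial chaperonin HSP60, stood at 426 FPKM and HSPB1 (HSP27) at 355 FPKM. The endoplasmic reticulum chaperones HSP90B1 (GRP94) and HSPA5 (BiP) had 318 and 249 FPKM, and the mitochondrial HSP70 HSPA9 had 196 FPKM. DNAJB1, a J-domain partner of cytosolic HSP70, and DNAJC8, a J-domain protein linked to splicing, came next with 92.5 and 86.7 FPKM. HSP90AA1, HSP90AB1 and HSPA8 together held 57.5% of the counts of all 74 genes in NC, 61.2% in GAS5 and 54.2% in siYAP.

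**Figure D1:**
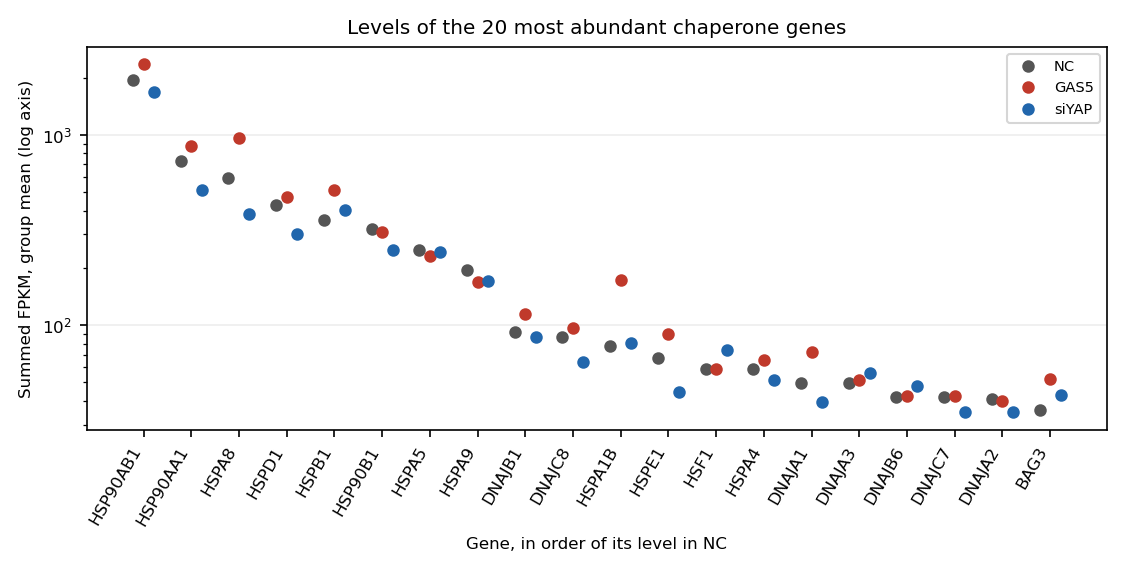
Summed FPKM (log axis) of the 20 most abundant heat shock and DNAJ genes, in order of their level in NC, with 1 point for the mean of each group. HSPA8 stands at 590 FPKM in NC, 964 in GAS5 and 384 in siYAP, while HSPA5 lies between 231 and 249 FPKM in the 3 groups.

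Of the 74 genes, 60 had a mean of at least 50 counts over the 3 groups, and each of these had at least 87 counts in NC. DNAJB7, HSPA6, HSPA12B and HSPB3 were listed at 0 in every group, where a count of 0 allows up to 3 counts over the libraries of a group. HSPA6, an HSP70 that most cells make only under severe stress, was therefore not detected in any group. CRYAB, a small heat shock protein of lens and muscle, was listed at 0 in NC and siYAP and had 0.5 mean counts in GAS5. The other genes under the minimum were DNAJB8, DNAJB13, HSPB2, HSPB6, HSPB7 and HSPB9, each with a mean under 5 counts, and HSPA1L, DNAJC28 and HSPA1A with 10.2, 31.0 and 41.6 counts.

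All 74 genes together took 1.56% of the counts of the tables in NC (95% Wilson interval 1.55 to 1.56), 1.86% in GAS5 (1.85 to 1.86) and 1.30% in siYAP (1.30 to 1.30). Without HSP90AB1 the shares were 1.05% for NC, 1.24% for GAS5 and 0.860% for siYAP. The share was thus highest in GAS5 and lowest in siYAP with and without the most abundant gene.

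In GAS5, 10 of the 60 genes (16.7%) were higher than in NC at the 0.5 limit, against 3.66% of all 11907 genes with the same minimum count. None of the 60 was lower, against 3.4% of all genes. The genes were HSPA1B, HSPA8, HSPB8, HSPB1, HSPE1, BAG3, DNAJA1, DNAJB2, DNAJB4 and DNAJC27. The median log2 fold change of the 60 genes was 0.07, and that of all genes was -0.0054. The quartiles were -0.07 and 0.31 for the 60 genes, against -0.17 and 0.16 for all genes. Across the 60 genes the values ran from -0.43 for DNAJC22 to 1.19 for HSPA1B. Of them 38 were above 0 (63.3%, against 49.1% of all genes). DNAJB4 (0.518) and HSPE1 (0.519) lay just inside the limit, and HSPH1 (0.459) just outside it.

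In siYAP, 3 of the 60 genes (5%) were lower than in NC at the same limit, against 6.58% of all genes. HSPA8, HSPE1 and HSPA4L were these genes. DNAJB9 and DNAJC4 were higher (3.33%, against 4.82% of all genes). These shares are not above those of all genes. No member was past 2-fold in siYAP, which 0.328% of all genes passed upward and 0.512% downward. The median of the 60 genes was -0.14, against -0.0064 for all genes. Below 0 were 41 of the 60, against 6039 of all 11907 genes. DNAJC9 (-0.467) and HSP90AA1 (-0.464) lay just outside the limit. Both comparisons use the same NC means, and the 2 fold changes of a gene are therefore not independent.

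**Figure D2:**
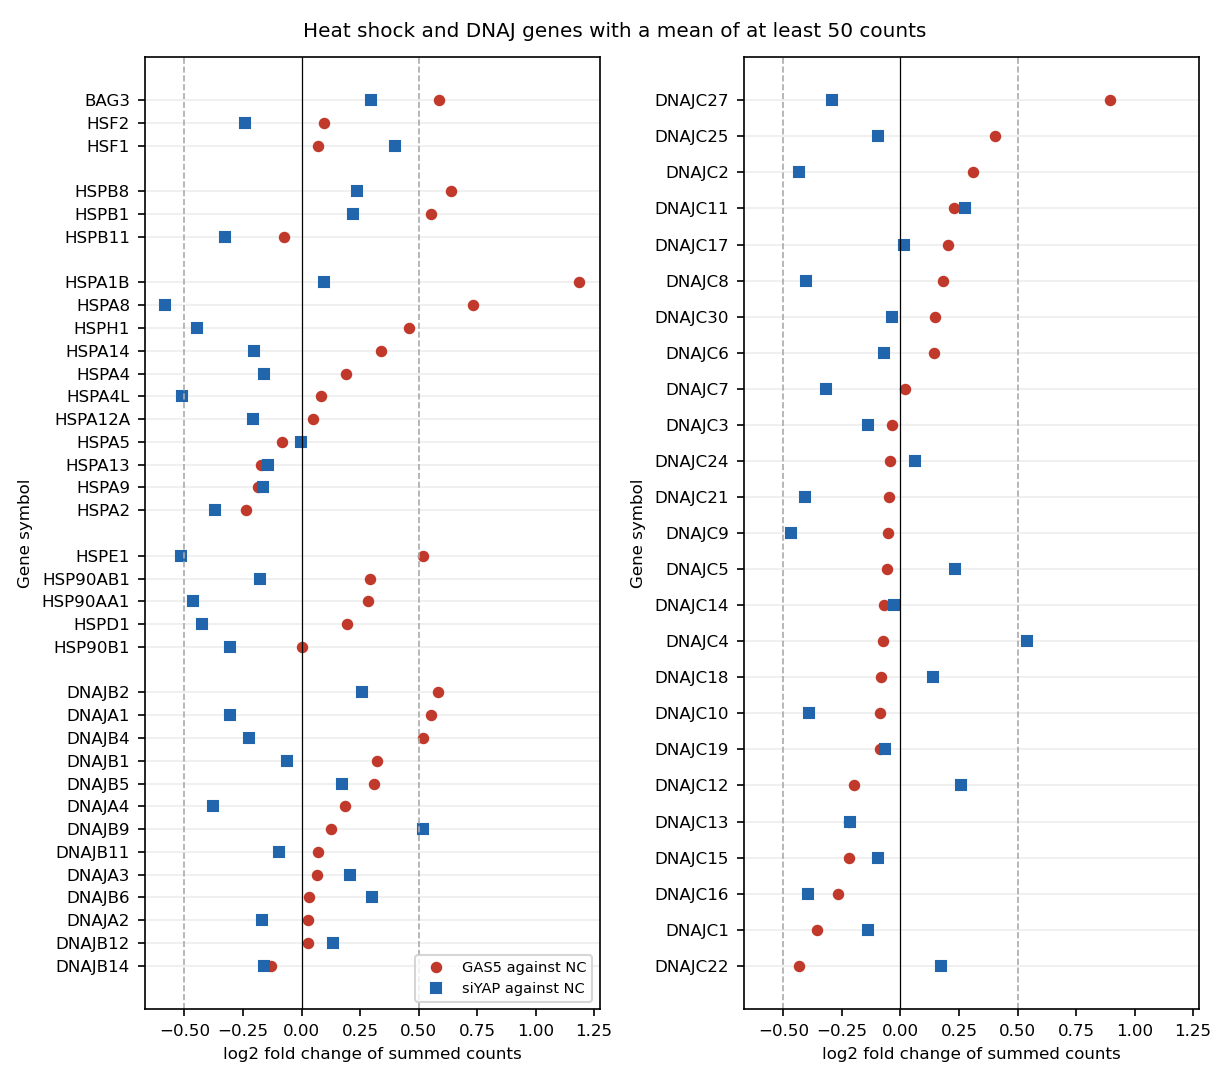
Log2 fold change of summed counts against NC (x axis) for the 60 genes with a mean of at least 50 counts, by gene family, with circles for GAS5 and squares for siYAP. The dashed lines mark 0.5 in either direction: 10 circles lie at or beyond the right line and none beyond the left, and 3 squares lie at or beyond the left line.

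Among the 60 genes, HSPA1B had the widest difference in GAS5 and HSPA8 the widest in siYAP. HSPA1B, the stress-inducible HSP70, had a scaled mean count of 5425 in NC, 12340 in GAS5 and 5803 in siYAP. GAS5 stood apart from the other groups at 2.27-fold of NC (log2 fold change 1.19, 95% Wilson interval 1.15 to 1.22), and siYAP lay near NC (0.10). HSPA1B was also the member past a 2-fold difference in GAS5, a difference that 0.798% of all genes passed upward and 0.269% downward, and it ranked 62 of 11907 genes by fold change. Its neighbour HSPA1A encodes nearly the same protein, and 71.4% of the 50-base stretches of the HSPA1B transcript also occur in HSPA1A. HSPA1A was given 27.3 mean counts in the NC group, against 70.5 for GAS5 and 26.9 for siYAP, so 99.5% of the NC counts of the pair were assigned to HSPA1B, a split that shared sequence makes uncertain. The sum of both genes has no such split and gave 1.19 in GAS5 and 0.10 in siYAP. HSPA1A and HSPA1B lie next to each other on chromosome 6 of GRCh38, from 31815464 to 31817946 and from 31827735 to 31830255 (GENCODE 29), in a single exon each.

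HSPA8 (chromosome 11, from 123057489 to 123063230) had a scaled mean count of 36544 in NC, 60798 in GAS5 and 24413 in siYAP. It was 1.66-fold of NC in GAS5 (log2 fold change 0.73, interval 0.72 to 0.75) and 0.668-fold in siYAP (-0.58, interval -0.60 to -0.57). HSPA8 has 19 listed transcripts, and 3 of them carried nearly all of its counts. ENST00000227378 held 50.8% of the NC counts of the gene, 46.0% of the GAS5 counts and 54.2% of the siYAP counts, with log2 fold changes of 0.59 and -0.49. ENST00000534624 held 40.8%, 41.5% and 36.9%, with 0.76 and -0.72. ENST00000534319, a minor transcript named after its values were seen, had 2592 mean counts in NC and showed 1.44 in GAS5 and -0.84 in siYAP. The 3 transcripts had the same order of groups as the gene sum.

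**Figure D3:**
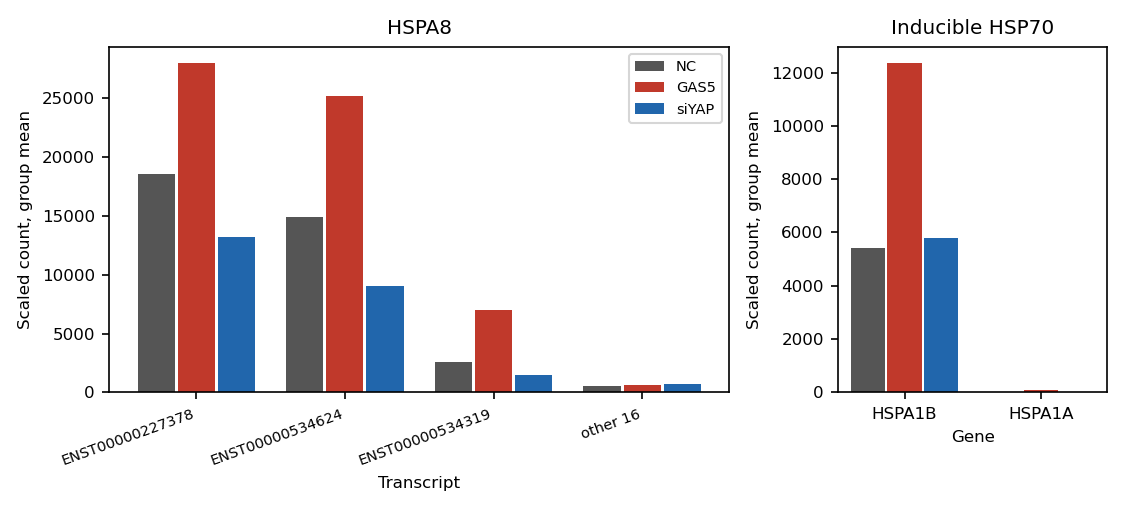
Scaled mean counts of the HSPA8 transcripts (left) and of the inducible HSP70 genes HSPA1B and HSPA1A (right), with a bar for each group and axes starting at 0, and the other HSPA8 transcripts summed. GAS5 is highest and siYAP lowest for each of the 3 main HSPA8 transcripts, while HSPA1B is at 12340 in GAS5 and at 5425 and 5803 in NC and siYAP.

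HSPH1 (HSP110), which exchanges the nucleotide of HSP70, had scaled mean counts of 2880 in NC, 3959 in GAS5 and 2110 in siYAP, with log2 fold changes of 0.46 and -0.45 that stayed under the limit. Its relative HSPA4L had 1088, 1152 and 762, and HSPA4 had 5509, 6278 and 4930. HSPA4L was near NC in GAS5 (0.08) and past the limit in siYAP (-0.51, interval -0.61 to -0.42). One HSPA4L transcript, ENST00000508776, had a mean count of 295 with NC against 108 with siYAP (-1.35), while ENST00000505726 had 187 and 210 (0.25), so the transcripts of this gene did not move alike. The HSP70s of other compartments lay close to NC in both groups, with HSPA5 at -0.08 and -0.0039 and HSPA9 at -0.18 and -0.17.

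The HSP90 genes were under the limit in both comparisons. HSP90AA1 had scaled mean counts of 68193 in NC, 83089 in GAS5 and 49425 in siYAP (0.29 and -0.46). With total counts or as a ratio of FPKM it was at -0.50 in siYAP, past the limit. HSP90AB1 had 138635, 170046 and 122445 (0.29 and -0.18). HSP90B1, which works in the endoplasmic reticulum, was at 20652, 20660 and 16720, with values of 0.00 in GAS5, where the sign turned under other scalings (-0.04 as a ratio of FPKM), and -0.30 in siYAP.

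The mitochondrial chaperonin genes HSPD1 and HSPE1 lie on opposite strands of chromosome 2 and encode the barrel and its lid. HSPD1 had scaled mean counts of 24747 in NC, 28318 in GAS5 and 18416 in siYAP (0.19 and -0.43). HSPE1 had 1553, 2227 and 1087, past the limit in both comparisons (0.52, interval 0.45 to 0.59, and -0.51, interval -0.60 to -0.43). Of the 50-base stretches of HSPE1, 16.0% also occur in the readthrough gene HSPE1-MOB4, and with the counts of both summed the values were 0.48 and -0.45, under the limit. In GAS5 HSPE1 was also under it with total counts (0.498) and as a ratio of FPKM (0.42 and 0.41 with pseudocounts of 0.1 and 1). The most abundant HSPE1 transcript, ENST00000233893, stood at 1239 mean counts with NC, 1803 with GAS5 and 857 with siYAP.

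Of the 8 listed small heat shock genes, 2 had enough counts. Both were higher in GAS5 at the limit, against 3.66% of all genes, and both were under it in siYAP. HSPB1 (chromosome 7, from 76302544 to 76304295) had scaled mean counts of 8936 in NC, 13131 in GAS5 and 10416 in siYAP (0.56, interval 0.53 to 0.58, and 0.22). HSPB8 had 164, 256 and 193 (0.64, interval 0.44 to 0.85, and 0.24), and was at 0.48 in GAS5 as a ratio of FPKM with a pseudocount of 1. BAG3, which joins HSPB8 and HSP70 in the disposal of aggregated proteins by autophagy, had 2438, 3668 and 2999 (0.59, interval 0.54 to 0.64, and 0.30). NC was the lowest group for these 3 genes, unlike for HSPA8. HSPB11, which carries a small heat shock name but serves in intraflagellar transport, lay at -0.08 and -0.33.

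Of the heat shock factors, HSF1 had scaled mean counts of 3395 in NC, 3560 in GAS5 and 4474 in siYAP (0.07 and 0.40). HSF2, a related factor, had 717, 766 and 605 (0.10 and -0.24). HSF1 mRNA was thus highest in siYAP and near NC in GAS5, where HSPA1B, HSPA8 and HSPB1 were highest. HSF1 is controlled largely at the level of its protein, which was not measured here.

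Among the DNAJA and DNAJB genes, 3 of 13 were higher in GAS5 at the limit, against 3.66% of all genes, and none was lower, against 3.4%. DNAJA1, a cytosolic partner of HSPA8, had scaled mean counts of 3293 in NC, 4836 in GAS5 and 2661 in siYAP (0.55, interval 0.51 to 0.60, and -0.31). DNAJB4, a relative of DNAJB1, had 666, 955 and 569 (0.52 and -0.23), and was under the limit in GAS5 with total counts (0.497) and as a ratio of FPKM (0.47 and 0.43 with pseudocounts of 0.1 and 1). DNAJB2, which holds ubiquitin-binding motifs beside its J domain, had 961, 1440 and 1148 (0.58 and 0.26), and was at 0.48 in GAS5 as a ratio of FPKM with a pseudocount of 1. DNAJB1 itself was under the limit with 5140, 6427 and 4919 (0.32 and -0.06). DNAJB6, a suppressor of polyglutamine aggregation, was near NC in GAS5 (0.03) and at 0.30 in siYAP. DNAJB9, a J-domain protein of the endoplasmic reticulum, had 352, 384 and 505 and was past the limit in siYAP (0.52, interval 0.38 to 0.66). DNAJB9 was under the limit with scaling by total counts (0.48) and as a ratio of FPKM with a pseudocount of 0.1 (0.48) or 1 (0.41).

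The DNAJC genes use the J domain in many other settings, and their median was -0.05 in GAS5 and -0.10 in siYAP over 25 genes. DNAJC27, which combines a Rab-like GTPase with a J domain, was past the limit in GAS5, from 103 to 193 scaled mean counts (0.89, interval 0.66 to 1.15), with 83.8 in siYAP. As a ratio of FPKM with a pseudocount of 1 its value in GAS5 was 0.45, under the limit. DNAJC4 was past it in siYAP, from 470 to 683 (0.54, interval 0.42 to 0.66), with 446 in GAS5. As a ratio of FPKM its value in siYAP was 0.48 with a pseudocount of 0.1 and 0.45 with 1, under the limit. DNAJC2 and HSPA14, which sit on the ribosome and receive new protein chains, were at 0.31 and 0.34 in GAS5 and at -0.43 and -0.20 in siYAP, all under the limit. DNAJC9, a histone chaperone, was at -0.05 and -0.47, and DNAJC21, a factor of ribosome assembly, at -0.05 and -0.41. DNAJC3, an endoplasmic reticulum co-chaperone, was at -0.04 and -0.14.

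Of the 15 genes on the list of classical HSF1-induced genes, 12 had enough counts: HSPA1B, HSPA8, HSPA4L, HSPH1, HSPB1, HSP90AA1, HSP90AB1, HSPD1, HSPE1, DNAJA1, DNAJB1 and BAG3. In GAS5 all 12 were above 0, against 49.1% of all genes, and 6 were higher at the limit, against 3.66% of all genes, with a median of 0.49. In siYAP 9 of the 12 were below 0, against 6039 of all 11907 genes, and 3 were lower at the limit, against 6.58% of all genes, with a median of -0.37. The 3 genes above 0 in siYAP were HSPA1B (0.10), HSPB1 (0.22) and BAG3 (0.30). The 8 members on a list for the endoplasmic reticulum, which need not be complete, had medians of -0.06 and -0.14. None of them was past the limit in GAS5, against 3.66% of all genes higher and 3.4% lower. DNAJB9 was higher at the limit in siYAP, against 4.82% of all genes. The 8 members on a list for mitochondria had medians of 0.11 and -0.08. Of these, HSPE1 was higher at the limit in GAS5, against 3.66% of all genes, and lower in siYAP, against 6.58%. Summed with HSPE1-MOB4 it was under the limit in both comparisons (0.48 and -0.45). Single transcripts of the members were past 2-fold about as often as transcripts in general. Of 114 member transcripts with a mean of at least 50 counts, 5 were higher in GAS5 and 3 lower, against 4.47% and 4.3% of all 25910. In siYAP 3 were higher and 4 lower, against 4.09% and 5.52%. The members and lists were chosen with results of these data known, so these counts are a description.

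**Figure D4:**
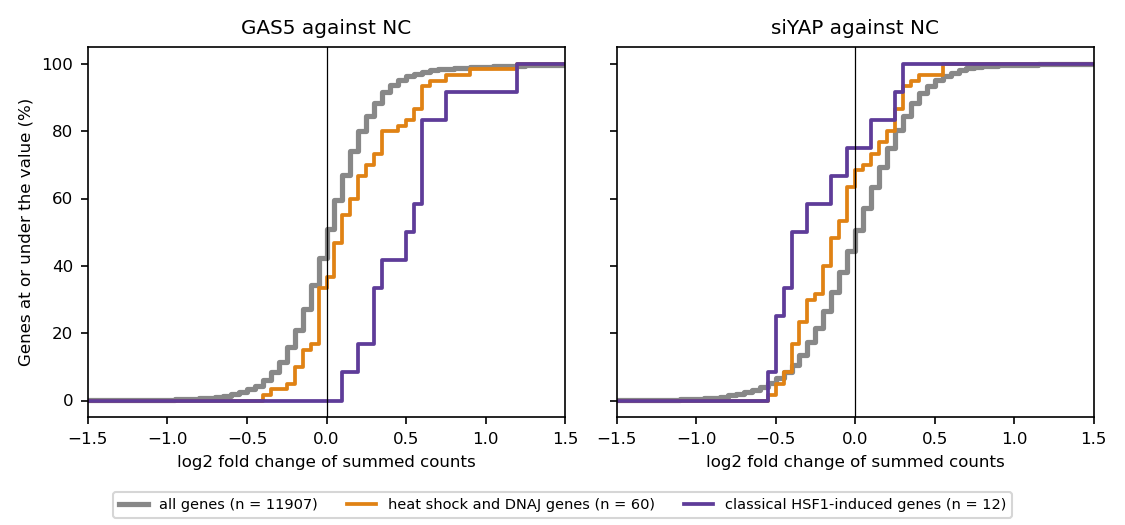
Share of genes (y axis, percent) at or under a log2 fold change (x axis, in steps of 0.05) for all 11907 genes, the 60 heat shock and DNAJ genes and the 12 classical HSF1-induced genes, in GAS5 (left) and siYAP (right). In GAS5 the curve of the 12 genes lies to the right of 0 with a median of 0.49, and in siYAP their median is -0.37 and 3 of the 12 lie above 0.

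Other genes of protein folding were taken from lists by role. Of the 22 listed co-chaperones of HSP70 and HSP90, none was past the limit in either comparison. Among all genes, 3.66% were higher and 3.4% lower in GAS5, and 4.82% and 6.58% in siYAP. The co-chaperones had a median of 0.17 in GAS5, where 19 of 22 were above 0, against 49.1% of all genes, and -0.05 in siYAP. TTC4, AHSA1 and CHORDC1, which bind HSP90, were at 0.43, 0.35 and 0.30 in GAS5 and at -0.03, -0.21 and -0.28 in siYAP. Not all of the 22 moved as these 3 did. In siYAP 9 were above 0 and 13 below, with values from -0.32 to 0.42. The values in GAS5 ran from -0.16 to 0.43. The 8 subunits of the cytosolic chaperonin CCT, which folds actin and tubulin, were all above 0 in GAS5 (0.11 to 0.39, median 0.26) and had a median of -0.16 in siYAP. CCT5 had the lowest value of the complex in siYAP (-0.35) and stood at 0.27 in GAS5. Prefoldin, which delivers clients to CCT, had medians of 0.11 and 0.02 over 6 genes. Folding factors of the endoplasmic reticulum had medians of -0.01 and -0.04 over 10 genes. SDF2L1, a stress-induced partner of HSPA5, was the gene among these past the limit, with mean counts, before scaling, of 339 in NC and 470 in GAS5 (0.58). Mitochondrial folding factors had medians of 0.01 and -0.02 over 8 genes. Of the other heat shock factor genes, HSBP1, which binds HSF1, was at 0.08 and -0.06, while HSF4 and HSF5 were under the minimum count.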

How the data were processed

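Stranded libraries from total RNA of HCT116 cells were sequenced by the submitters in 3 groups of 2 libraries. TopHat2 2.1.1 is named in the submitters' processing notes, while the counting tool, genome build and annotation are not given in the sources used here. The deposited mRNA tables hold, for each transcript, the authors' estimated counts and FPKM values as 1 mean per group of 2 libraries. Further columns of the authors' own comparisons (log2 fold change, p-value, FDR and a significance mark) were not used.

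Estimated counts were summed per symbol, without rounding, as were FPKM values. The 339 transcripts with no symbol were left out of gene sums (at most 0.224% of the counts of a group). Scale factors came from TMM (edgeR 4.0.16, R 4.3.3) on the pair of group means, with a prior count of 2, a minimum mean of 50 counts over the 3 groups and a limit of 0.5 on the log2 scale. The planned count test was not run, since group means leave no spread between libraries. Wilson intervals (95%) used the counts behind the means. The depth was 25521577 to 27206123 mean counts per group. The steps were tested on simulated counts. FPKM listed as 0.001 was read as 0.

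Named members were those past the limit in either comparison, the 10 highest in FPKM in NC, and a list of well known members. Transcripts were named from 20% of a gene's counts, and up to 3 genes of each other list were named beside those past the limit. Other members and transcripts were named after their values were seen. The members and lists were chosen with earlier results of these data known. Alternatives were DESeq2 1.42.0 size factors, total counts, FPKM ratios with pseudocounts of 0.1 and 1, other prior counts and minimum counts, Ensembl transcripts alone and a limit of 1. Promoters came from RefSeq, and gene positions and transcript sequences from GENCODE 29.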

Additional observations from a re-analysis of the deposited data

How the results depend on the processing

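No paired analysis was possible because each group is given as 1 mean. For the same reason leaving out a library, the edgeR quasi-likelihood test and the DESeq2 test were not run. Of 52 alternative counts and medians, 38 stayed in range. For a count this range was wide, as 8 or 13 in place of 10 stayed in it. A median had to stay within the usual counting error of a single member. Of the 382 alternative values, direction was scored only for medians and for named genes past the limit, and none of these turned. For named genes, 66 of 330 alternative values lay outside the counting interval of the gene. HSPA8 in siYAP, with an interval of -0.60 to -0.57, was at -0.62 with total counts. HSP90B1 in GAS5, at 0.00 in the report, lay below 0 with DESeq2 size factors (-0.0044), total counts (-0.02), FPKM ratios (-0.04 at either pseudocount) and Ensembl transcripts alone (-0.01). The 10 members higher in GAS5 became 5 with FPKM ratios at pseudocount 1, against 2.18% of all genes. At a limit of 1 they became 1 (0.798%). They became 8 with total counts (3.30%), with FPKM ratios at pseudocount 0.1 (3.34%) and with a minimum mean count of 200 (2.67%). Without a minimum count, 13 of all 74 genes were higher in GAS5 (8.82%). Members lower in GAS5, 0 in the report, were 1 with FPKM ratios at either pseudocount (DNAJC22, against 3.53% and 1.5%). With no minimum count, 1 of all 74 genes was lower (DNAJB8, against 6.12%). The 2 members higher in siYAP became 1 with scaling by total counts (3.84%) and 0 at a limit of 1 (0.328%). With FPKM ratios they became 0 at either pseudocount (3.81% and 2.27%). The 3 members lower in siYAP became 5 with total counts (7.76%) and 0 at a limit of 1 (0.512%). With FPKM ratios they became 5 at either pseudocount (7.35% and 4.63%). With no minimum count, 6 of all 74 genes were lower (8.25%). The cause of these moves was not tested. HSPA1B, HSPA8, HSPB1, BAG3 and DNAJA1 stayed past 0.5 in GAS5 in each setting with that limit. DNAJB2, DNAJB4, DNAJC27, HSPB8 and HSPE1 in GAS5 and DNAJB9, DNAJC4 and HSPE1 in siYAP lay under it in at least 1 setting, given beside each. HSP90AA1 passed the limit in siYAP with total counts and with FPKM ratios at either pseudocount (-0.50 in each). DNAJC9 passed it in siYAP in the same settings and with Ensembl transcripts alone. Depth limits DNAJC27 most among the members past the limit, with an interval of 0.66 to 1.15.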

Other observations

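The single transcripts named here were chosen after their values were seen. HSPD1 held opposite differences in GAS5, where ENST00000345042 had a mean count of 149 with NC and 388 with GAS5 (1.48) while ENST00000452200 had 615 and 257 (-1.14). In siYAP the HSPA8 transcript ENST00000533540 had 520 mean counts against 192 in NC (1.51), although the gene sum was lower. DNAJC16 transcript ENST00000616884 stood at 97.0 mean counts with NC against 11.9 with siYAP (-2.76). DNAJC27 transcript ENST00000534855 stood at 5.43 mean counts with NC, 49.0 with GAS5 and 33.6 with siYAP, while ENST00000264711 had 97.6, 130 and 45.4. The assignment of counts among transcripts of a gene is an estimate whose error these means do not show.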
